A study of Mus musculus with 12 samples.

Results

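A set of 7 enzymes and regulators of sterol synthesis, namely Hmgcs1, Idi1, Fdft1, Sqle, Lss, Cyp51 and Insig1, was followed across 12 microarrays of mouse striatal RNA. A probe set was taken for a gene when that gene was its only symbol in the platform annotation, and the probe sets of a gene were averaged. This gave 7 of the 19938 genes so defined, on 9 of 28853 probe sets: Fdft1 and Idi1 had 2 each and the others 1. The tissue was the anterior striata, a brain region central to reward, of male adolescent mice of the outbred Swiss CD-1 stock. All animals went through a 10-day conditioned place preference procedure, in which a compartment is paired with a treatment given 15 minutes before entry. They received saline, ethanol, mephedrone (a synthetic cathinone stimulant), or mephedrone together with ethanol, here called the combination, with 3 arrays per group. The labels carry no genetic modification, no dose and no time of dissection, and they leave unstated how many animals stand behind an array. The p-values below are therefore set against a spread between arrays that may be technical, and the number of arrays limits the precision.

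Cells build cholesterol from acetyl units through mevalonate, isoprenoid units and squalene, and the ring-closed product lanosterol is then trimmed to cholesterol. The genes of this route are switched on together by SREBP transcription factors, which INSIG proteins hold back in the endoplasmic reticulum when sterols are plentiful. The adult brain makes nearly all of its own cholesterol, since lipoproteins of the blood do not cross into it, and glia are the main producers. Hmgcs1 makes HMG-CoA, Idi1 interconverts the isoprenoid building blocks, Fdft1 joins a pair of farnesyl units into squalene, Sqle oxidises squalene, Lss closes the rings and Cyp51 removes a methyl group from lanosterol. Insig1 encodes a retention protein and is itself a target of SREBP.

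Promoter sequences were available for 5 of the 7 genes, and those with a motif in the 150 bases before the start are shown. They are RefSeq sequences of build GRCm38.p6, written 5′ to 3′ on the strand of the gene and ending at the base before the start. Capitals mark a SREBP motif (TCACNCCAC) or a CCAAT box, which reads ATTGG on the opposite strand. The windows are chr13:119690201-119690350 (plus strand) for Hmgcs1, chr13:8885456-8885605 (plus) for Idi1, chr10:76531455-76531604 (plus) for Lss and chr5:4104698-4104847 (minus) for Cyp51.
Hmgcs1: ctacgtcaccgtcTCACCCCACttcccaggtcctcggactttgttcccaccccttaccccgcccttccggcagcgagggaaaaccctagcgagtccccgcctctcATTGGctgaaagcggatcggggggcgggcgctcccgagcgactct
Idi1: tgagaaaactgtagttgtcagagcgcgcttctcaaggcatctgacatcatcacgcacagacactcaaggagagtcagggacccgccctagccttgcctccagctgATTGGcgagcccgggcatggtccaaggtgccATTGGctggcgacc
Lss: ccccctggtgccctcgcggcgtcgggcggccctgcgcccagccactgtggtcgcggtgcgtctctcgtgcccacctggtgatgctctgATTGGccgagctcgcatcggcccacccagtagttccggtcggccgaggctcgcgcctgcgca
Cyp51: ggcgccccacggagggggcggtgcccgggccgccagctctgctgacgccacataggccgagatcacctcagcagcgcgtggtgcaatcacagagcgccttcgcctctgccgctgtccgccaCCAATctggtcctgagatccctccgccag
Both strands were searched over the 250 bases before each start, and the 2 motifs do not overlap in these genes. The SREBP motif was found in 1 of the 5 genes, Hmgcs1, as TCACCCCAC from base 137 to base 129 before the start, and in 346 of 32851 windows of all genes (1.05%). A CCAAT box was found in all 5 windows and in 33.85% of the windows of all genes. Hmgcs1 and Idi1 each had one from base 45 to 41 before the start, Idi1 had another from 14 to 10, and Hmgcs1 had 2 more beyond base 150. Lss had one from 62 to 58, Cyp51 from 29 to 25 and Insig1 from 216 to 212. Both motifs stood together in 0.326% of all windows. These matches describe letters in a window and do not show binding.

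The deposited values are log2 differences of a probe set from its own median over the 12 arrays, so they give differences between arrays and no absolute level. The striatal identity of the tissue could not be checked from levels for the same reason. Combination replicate 3 stood apart. Its SD over all probe sets was 0.169, against 0.127 in ethanol replicate 1 and 0.068 to 0.102 in the other 10 arrays. For several cell types its marker means lay outside the range of the other arrays. The mean of 11 oligodendrocyte markers was 0.53 there, with all 11 above 0, as all 11 also were in saline replicate 3 at a mean of 0.16. That of 8 cortical excitatory neuron markers was 0.79, with all 8 above 0, as in mephedrone replicate 2 at 0.34. The 9 measured markers of striatal projection neurons had a mean of -0.33 with none above 0, as in ethanol replicate 1 at -0.19. Results are given with all 12 arrays and without that array. In such bulk samples, fewer cells of a type and less RNA per cell cannot be told apart.

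All 7 genes had their highest value of the 12 arrays in combination replicate 3, as did 18.2% of all genes. The mean of the 7 genes was 0.34 in that array, and 4.06% of all genes had a higher value in it than this mean. The next highest mean was 0.14, in ethanol replicate 1, followed by 0.061 and 0.055 in the other two combination arrays and 0.037 in mephedrone replicate 1. The 7 other arrays had means between -0.15 (ethanol replicate 2) and -0.0070 (saline replicate 3). With all 12 arrays the combination had the highest group mean for each of the 7 genes. Without replicate 3 its mean for Insig1 was -0.013, below those of saline (0.013), ethanol (0.019) and mephedrone (0.012). The lowest group mean on 12 arrays belonged to saline for Hmgcs1, Fdft1, Sqle and Cyp51, to mephedrone for Idi1 and Insig1, and to ethanol for Lss. Some of these places rest on small gaps, since mephedrone and saline differed by only -0.0021 for Idi1 and -0.0012 for Insig1. Without ethanol replicate 1, ethanol lay below saline for Hmgcs1 (a difference of -0.11) and Cyp51 (-0.044).

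**Figure D1:**
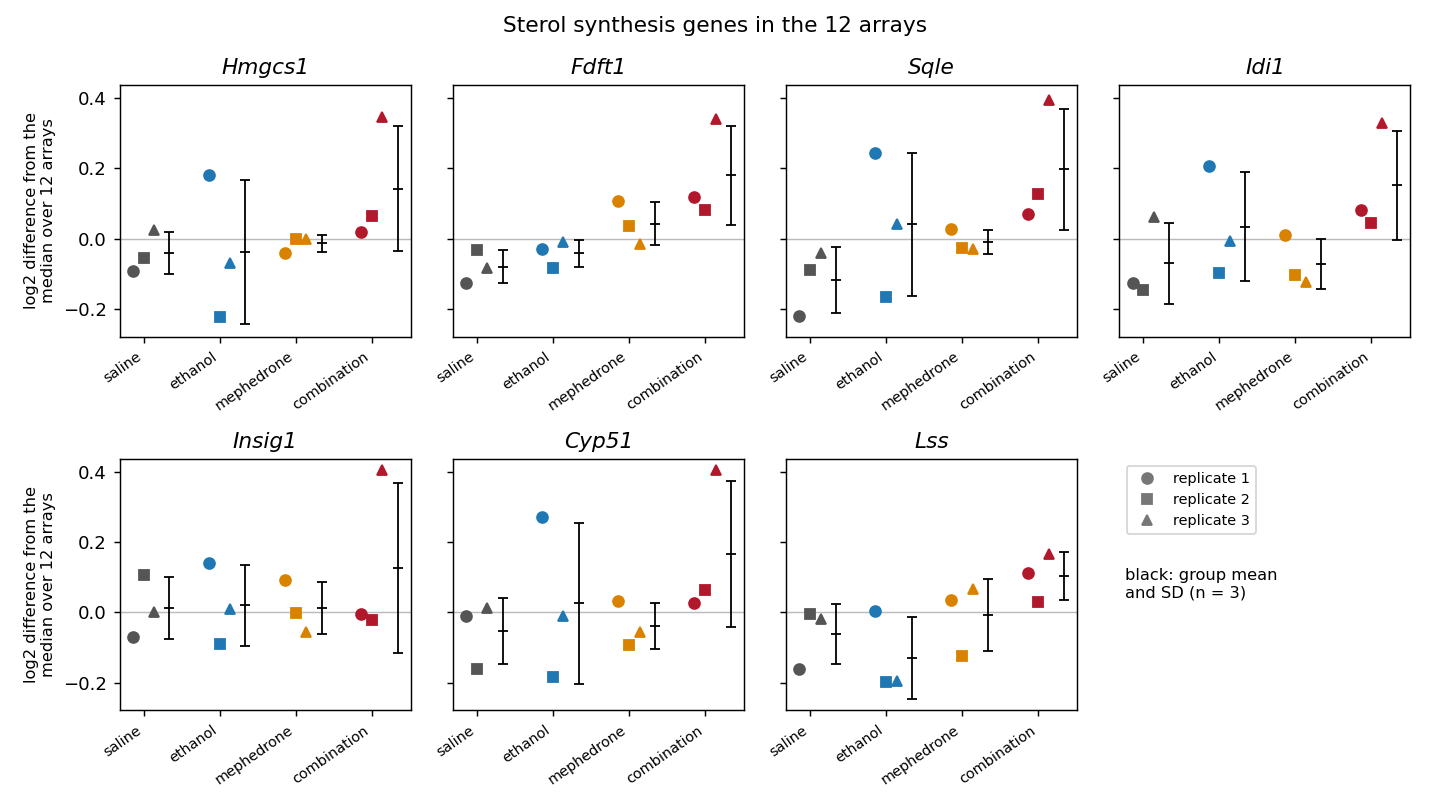
Log2 difference from the gene's median over 12 arrays (vertical axis) for the 7 sterol synthesis genes in each array. Points are arrays, with colour for the group and shape for the replicate, and black bars are the group mean and SD (n = 3). Combination replicate 3 is the highest point in every panel, from 0.17 for Lss to 0.40 for Insig1 and Cyp51.

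Among the early enzymes, Hmgcs1 read -0.093, -0.056 and 0.023 in the saline arrays, 0.18, -0.22 and -0.070 in the ethanol arrays, -0.042, 0.00012 and -0.00012 in the mephedrone arrays and 0.018, 0.063 and 0.35 in the combination arrays. Each value is a log2 difference from the gene's median over the 12 arrays. Saline and mephedrone arrays were close together, the ethanol arrays held both the lowest and the second highest value, and a single combination array was far above the rest. The group means were -0.042 ± 0.059 (SD, n = 3) with saline and 0.14 ± 0.18 with the combination, or 0.041 ± 0.032 (n = 2) without replicate 3. Idi1, the isomerase, read -0.13, -0.15 and 0.062 in the saline arrays, 0.21, -0.10 and -0.0056 in the ethanol arrays, 0.0093, -0.10 and -0.12 in the mephedrone arrays and 0.081, 0.043 and 0.33 in the combination arrays. Its saline and combination arrays overlapped through saline replicate 3. Its mephedrone arrays all lay below its combination arrays.

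Fdft1, the squalene synthase at the branch towards sterols, read -0.13, -0.032 and -0.085 in the saline arrays, -0.031, -0.084 and -0.0098 in the ethanol arrays, 0.11, 0.036 and -0.016 in the mephedrone arrays and 0.12, 0.081 and 0.34 in the combination arrays. Every combination array was above every saline and ethanol array. The arrays given mephedrone and those not given it were separated except that mephedrone replicate 3 lay below ethanol replicate 3. Means and SDs (n = 3) were -0.081 ± 0.047 for saline, -0.042 ± 0.038 for ethanol, 0.043 ± 0.062 for mephedrone and 0.18 ± 0.14 for the combination, or 0.10 ± 0.027 (n = 2) without replicate 3. Its 2 probe sets differed by at most 0.064 in any array, and those of Idi1 by at most 0.11.

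Sqle, the squalene epoxidase, read -0.22, -0.091 and -0.042 in the saline arrays, 0.24, -0.17 and 0.043 in the ethanol arrays, 0.028, -0.028 and -0.030 in the mephedrone arrays and 0.071, 0.13 and 0.39 in the combination arrays. All saline arrays were below all mephedrone and all combination arrays, whereas the ethanol arrays ran from -0.17 to 0.24 and overlapped with every other group. Lss, the cyclase, read -0.16, -0.0045 and -0.019 in the saline arrays, 0.0045, -0.20 and -0.20 in the ethanol arrays, 0.035, -0.13 and 0.065 in the mephedrone arrays and 0.11, 0.030 and 0.17 in the combination arrays. Its combination arrays lay above its saline and ethanol arrays and overlapped with mephedrone. Combination replicate 3 stood out least for Lss, by 0.094 over the mean of the other two combination arrays.

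Cyp51, the lanosterol demethylase, read -0.011, -0.16 and 0.011 in the saline arrays, 0.27, -0.18 and -0.012 in the ethanol arrays, 0.034, -0.094 and -0.056 in the mephedrone arrays and 0.027, 0.064 and 0.40 in the combination arrays. Its ethanol arrays had a wider SD (0.23) than its combination arrays (0.21). Insig1, the retention protein, read -0.069, 0.11 and 0.0011 in the saline arrays, 0.14, -0.090 and 0.0087 in the ethanol arrays, 0.091, -0.0011 and -0.055 in the mephedrone arrays and -0.0041, -0.022 and 0.40 in the combination arrays. Outside combination replicate 3, its arrays overlapped in every pair of groups. That array exceeded the mean of the other two combination arrays by 0.42 for Insig1, 0.36 for Cyp51, 0.31 for Hmgcs1, 0.29 for Sqle, 0.27 for Idi1 and 0.24 for Fdft1.

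Ethanol replicate 1 was the second highest array for Hmgcs1, Idi1, Sqle, Cyp51 and Insig1, and combination replicate 1 was second for Fdft1 and Lss. Against the mean of the other two ethanol arrays it was higher by 0.37 for Cyp51, 0.33 for Hmgcs1, 0.30 for Sqle, 0.26 for Idi1, 0.20 for Lss and 0.18 for Insig1, but by only 0.016 for Fdft1.

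The comparison of the combination with saline asked how both drugs together differed from vehicle. All 7 differences between the group means were above 0, as were 57.0% of those of all genes. Their median was 0.22 on the log2 scale against 0.012 over all genes. In a limma fit across all genes with Benjamini-Hochberg adjustment, 0 of the 7 genes passed an adjusted p of 0.05, where 0.01% of all genes did. Unadjusted p-values were below 0.05 for 4 of the 7 and for 2421 of all genes, and for 2 of the 7 and 1886 of all genes without combination replicate 3. Sqle differed by 0.32 (SE 0.101, 1.24-fold, adjusted p = 0.264) and Fdft1 by 0.26 (SE 0.063, 1.20-fold, adjusted p = 0.153). Idi1 and Cyp51 followed at 0.22 each (SE 0.092 and 0.116), then Hmgcs1 at 0.18 (SE 0.099), Lss at 0.16 (SE 0.070) and Insig1 at 0.11 (SE 0.103, 95% confidence interval -0.11 to 0.34). Without combination replicate 3 the median was 0.13, Sqle differed by 0.22 (adjusted p = 0.509), Fdft1 by 0.18 (adjusted p = 0.243), Hmgcs1 by 0.082 and Cyp51 by 0.10. Insig1 then turned to -0.026, with an interval of -0.18 to 0.13. All combination arrays lay above all saline arrays for 4 genes, Fdft1, Sqle, Lss and Cyp51, with 11.7% of all genes doing so. The same 4 did so without that array, against 17.5% of all genes.

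Against ethanol alone, 0 of the 7 genes passed with the combination, where 0.0251% of all genes did, and 2 of the 7 and 1939 of all genes had an unadjusted p below 0.05. Lss differed by 0.23 (SE 0.070, adjusted p = 0.329) and Fdft1 by 0.22 (SE 0.063, adjusted p = 0.312), both with all combination arrays above all ethanol arrays, as 6.44% of all genes had. Without combination replicate 3 the differences were 0.20 for Lss and 0.14 for Fdft1. The same 2 genes, and 11.1% of all genes, then had all combination arrays above all ethanol arrays. The other differences were 0.18 for Hmgcs1, 0.16 for Sqle, 0.14 for Cyp51, 0.12 for Idi1 and 0.11 for Insig1 on 12 arrays. They ranged from -0.033 (Insig1) to 0.078 (Hmgcs1) without that array. Leaving out ethanol replicate 1 as well gave 0.19 for Hmgcs1, 0.16 for Sqle, 0.14 for Cyp51, 0.11 for Idi1, 0.15 for Fdft1 and 0.27 for Lss, and Insig1 stood at 0.028. The smallest adjusted p of the 7 was then 0.209.

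Against mephedrone alone, which asked what ethanol added to it, 0 of the 7 genes and 0% of all genes passed, with unadjusted p below 0.05 for 2 of the 7 and 660 of all genes. The differences ran from 0.11 (Lss and Insig1) to 0.22 (Idi1, SE 0.092), each with an adjusted p of 0.992. Without combination replicate 3 they ran from -0.025 (Insig1) to 0.13 (Idi1), and 0 of the 7 and 363 of all genes had an unadjusted p below 0.05. All combination arrays lay above all mephedrone arrays for 3 genes, Hmgcs1, Sqle and Idi1, and for 4.88% of all genes. Without combination replicate 3 the same 3 genes, and 8.75% of all genes, had all combination arrays above all mephedrone arrays.

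The main effect of mephedrone set the 6 arrays given it, alone or with ethanol, against the 6 others. None of the 7 genes (0 of 7) passed, where 0.115% of all genes did, and unadjusted p-values were below 0.05 for 2 of the 7 and 2519 of all genes. Fdft1 had the smallest p of the 7, with a difference of 0.17 (SE 0.044, 95% confidence interval 0.076 to 0.27, unadjusted p = 0.0023, adjusted p = 0.129). Without combination replicate 3 the difference was 0.13 (SE 0.032, adjusted p = 0.109). With the mean of the oligodendrocyte markers as a covariate its difference was again 0.17 and its adjusted p 0.0305, the 1 setting of 18 in which any of the 7 genes passed. Calls over all genes in this effect ranged from 2 to 356 across the settings, and the share with that covariate is not given. The call can therefore not be read as particular to Fdft1. The probe sets of Fdft1 tested singly gave 0.16 and 0.18 (adjusted p = 0.128 and 0.130). Lss differed by 0.14 (SE 0.050, adjusted p = 0.247), and by 0.13 without combination replicate 3. Sqle (0.13), Hmgcs1 (0.10), Cyp51 (0.077), Idi1 (0.058) and Insig1 (0.053) had smaller differences. In the same order they were 0.084, 0.053, 0.017, 0.013 and -0.017 without that array.

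**Figure D2:**
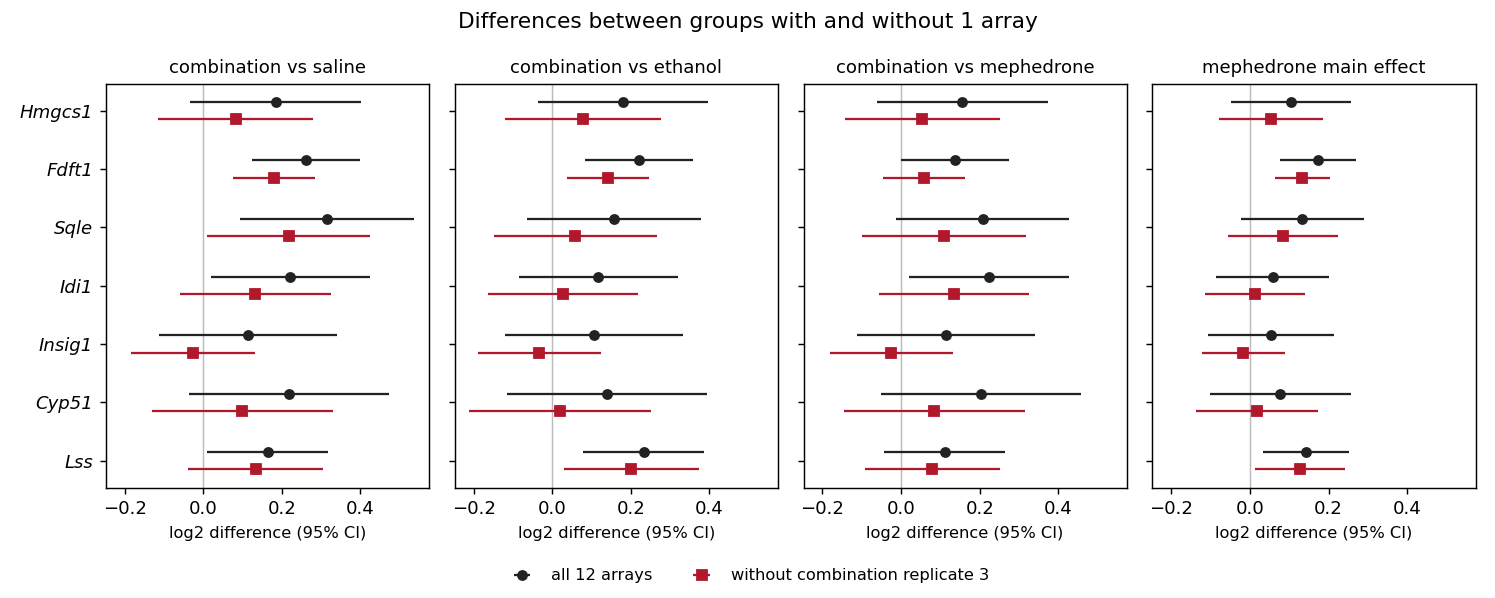
Log2 differences with 95% confidence intervals (horizontal axis) for the 7 genes in 4 comparisons, from limma fits to all 12 arrays (black circles) and to 11 arrays without combination replicate 3 (red squares). The squares lie to the left of the circles throughout. With 11 arrays Fdft1 keeps an interval above 0 in the comparisons with saline and ethanol and in the mephedrone main effect. Lss keeps one against ethanol and in the mephedrone main effect, and Sqle keeps one against saline. The intervals are not adjusted for the number of genes, and 0 of the 7 genes passed after adjustment. With 11 arrays, 9.46% of all genes had an unadjusted p below 0.05 against saline, 7.56% against ethanol and 12.5% in the main effect.

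Mephedrone alone against saline gave 0 of the 7 genes and 0% of all genes past the threshold, and 0 of the 7 and 1441 of all genes had an unadjusted p below 0.05. Fdft1 differed by 0.12 (SE 0.063, adjusted p = 0.746) and Sqle by 0.11 (SE 0.101). Both had all mephedrone arrays above all saline arrays, as 9.99% of all genes had. The other 5 differences lay between -0.0021 (Idi1) and 0.053 (Lss). In the fit without combination replicate 3, whose spread is estimated from 11 arrays, Fdft1 kept its difference of 0.12 with an interval of 0.030 to 0.22 (unadjusted p = 0.0141, adjusted p = 0.44). In that fit 1 of the 7 and 1741 of all genes had an unadjusted p below 0.05. For ethanol alone against saline, again 0 of the 7 and 0% of all genes passed, with 0 of the 7 and 992 of all genes at an unadjusted p below 0.05. The differences were 0.16 for Sqle (SE 0.101), 0.10 for Idi1, 0.079 for Cyp51, 0.039 for Fdft1, 0.0066 for Insig1, 0.0038 for Hmgcs1 and -0.069 for Lss. Without ethanol replicate 1 they were 0.057 for Sqle, 0.018 for Idi1, -0.044 for Cyp51, 0.034 for Fdft1, -0.054 for Insig1, -0.11 for Hmgcs1 and -0.14 for Lss. The differences of Cyp51, Insig1 and Hmgcs1 thus changed sign with that array. With all 12 arrays no gene of the 7 separated its ethanol from its saline arrays.

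Mephedrone against ethanol ranged from -0.11 for Idi1 to 0.12 for Lss, with 0 of the 7 genes and 0% of all genes past the threshold, and 0 of the 7 and 1252 of all genes below an unadjusted p of 0.05. Without ethanol replicate 1 the range was -0.020 (Idi1) to 0.19 (Lss), and Hmgcs1 went from 0.024 to 0.13. Sqle went from -0.050 to 0.051, Cyp51 from -0.064 to 0.058 and Insig1 from -0.0078 to 0.053. In the ethanol main effect 0 of the 7 and 0% of all genes passed as well, with 2 of the 7 and 912 of all genes below an unadjusted p of 0.05. The largest differences there were 0.18 for Sqle (SE 0.071), 0.16 for Idi1 (SE 0.065) and 0.14 for Cyp51 (SE 0.082), each with an adjusted p of 0.941. They were 0.13, 0.12 and 0.082 without combination replicate 3, where 0 of the 7 and 760 of all genes had an unadjusted p below 0.05. Leaving out ethanol replicate 1 as well gave 0.083, 0.077 and 0.020, with -0.025 for Hmgcs1, -0.039 for Insig1 and -0.028 for Lss, which had been above 0 on 12 arrays. The interaction, which is the ethanol difference in the presence of mephedrone minus that in its absence, lay between 0.049 for Sqle and 0.18 for Lss. No gene passed it (0 of the 7 and 0% of all genes, with 0 of the 7 and 705 of all genes at an unadjusted p below 0.05), and without combination replicate 3 it ran from -0.049 to 0.15. The F test for any difference among the 4 groups was passed by 0 of the 7 genes and 0.00502% of all genes. Fdft1 had the largest F of the 7, 6.82 (adjusted p = 0.373), followed by Lss at 3.89 and Sqle at 3.37. Without combination replicate 3 these F values were 6.18, 2.45 and 2.06.

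The 7 genes varied together from array to array. Pearson correlations between pairs of them had a median of 0.77 over 12 arrays (0.59 to 0.94) and of 0.56 over the 11 without combination replicate 3 (0.22 to 0.87). The points share their arrays and normalisation, so these are descriptions, and no such value is given for other sets of genes. Against the mean of the other 6, Sqle reached 0.94 over 12 arrays and 0.90 over 11, Hmgcs1 0.94 and 0.85, Idi1 0.90 and 0.80, and Cyp51 0.90 and 0.78. Insig1 had 0.84 and 0.57, Lss 0.70 and 0.58, and Fdft1 0.79 and 0.48. Outside the lists, the genes whose pattern was most like the mean of the 7 over 12 arrays were Pon2 (r = 0.97), Lypla1 (0.96), Cadps (0.95), Klc1 (0.95) and Trhde (0.95). Over 11 arrays they were Lypla1 (0.93), Krr1 (0.93), Zfp354c (0.93), Pon2 (0.91) and Snx1 (0.91).

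Of 17 other enzymes of the route that were listed, 14 were measured, and none (0 of 14) passed in any comparison. In the combination against saline 13 of the 14 differences were above 0, beside 57.0% of all genes, with a median of 0.10 beside 0.012 over all genes. Without combination replicate 3, 10 of the 14 were above 0, beside 55.3% of all genes, with a median of 0.018. All 14 were above 0 in that array. Nsdhl and Lbr, which act in the removal of methyl groups and the reduction of a ring bond after lanosterol, had the smallest F test p-values of the list. Nsdhl read -0.13, -0.11 and -0.10 in the saline arrays, 0.14, -0.058 and 0.0084 in the ethanol arrays, 0.023, -0.0084 and -0.073 in the mephedrone arrays and 0.062, 0.031 and 0.26 in the combination arrays. Its saline arrays were the 3 lowest of the 12, an order whose share over all genes was not counted. The difference between combination and saline was 0.23 (SE 0.063, adjusted p = 0.203), and 0.16 without combination replicate 3. For Lbr it was 0.25 (SE 0.079, adjusted p = 0.256), and 0.18 without that array.

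**Figure D3:**
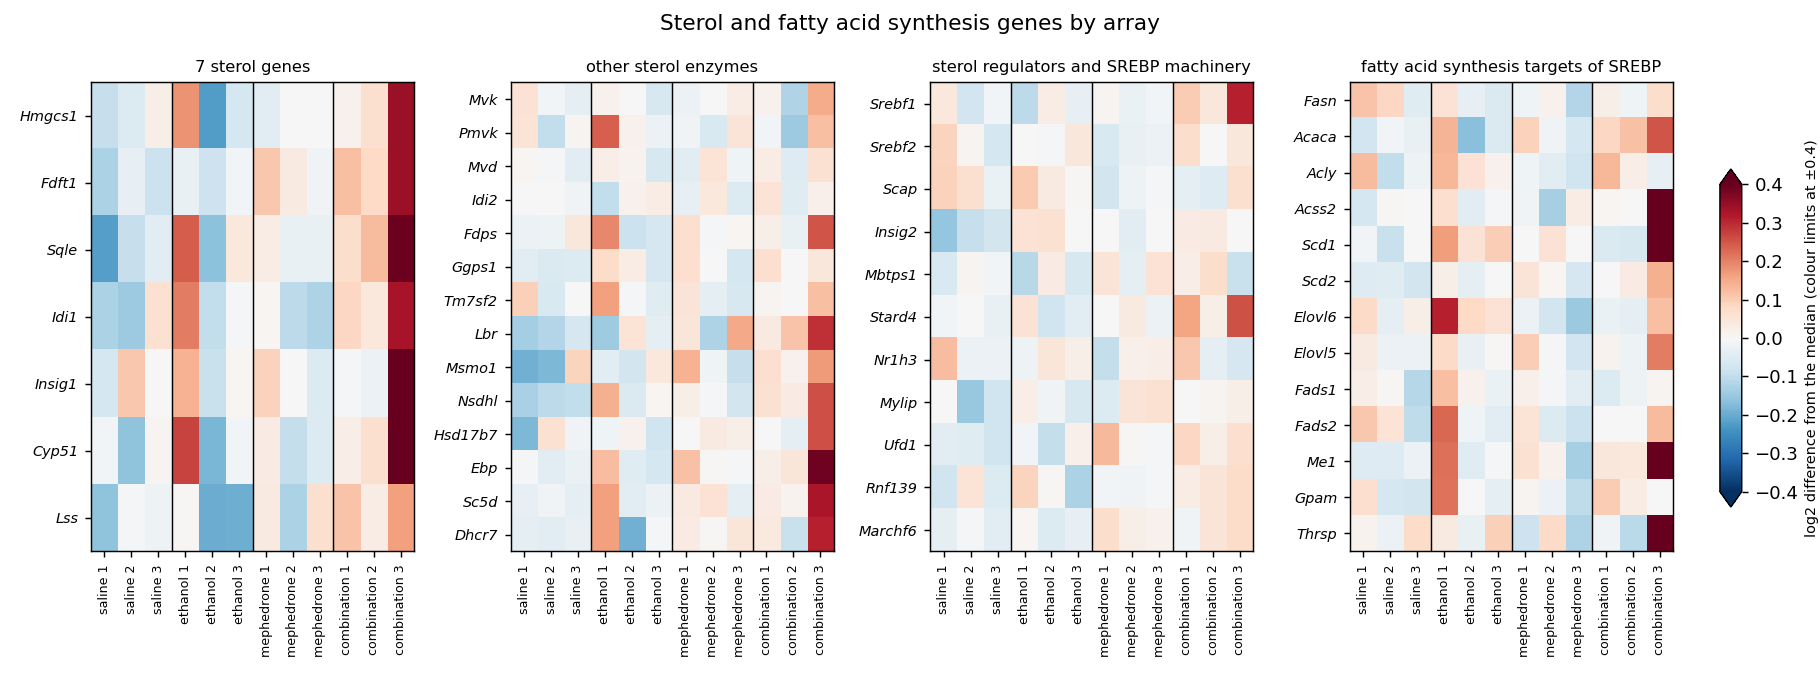
Log2 difference from the gene's median over 12 arrays (colour, limited at ±0.4) for the 7 genes, 14 other sterol enzymes, 11 regulators and 13 fatty acid synthesis genes (rows) in each array (columns, with lines between groups). In combination replicate 3 all 7 genes, all 14 other enzymes and 12 of the 13 fatty acid genes are above 0, and in ethanol replicate 1 so are 6 of the 7, 10 of the 14 and all 13.

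Of the regulators and SREBP machinery, 11 of 17 listed genes were measured. None (0 of 11) passed in any comparison, and the median difference between combination and saline was 0.078, or 0.069 without combination replicate 3. Srebf1, which encodes the SREBP form known for fatty acid genes, read 0.31 in combination replicate 3 and between -0.11 and 0.10 elsewhere. Its difference between combination and ethanol was 0.19 (SE 0.064, adjusted p = 0.374), and 0.11 without that array. Srebf2, which encodes the form known for sterol genes, stayed between -0.069 and 0.088, and read 0.046 in combination replicate 3.

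Insig2, the paralogue of Insig1, read -0.15, -0.093 and -0.073 in the saline arrays, 0.056, 0.060 and -0.00064 in the ethanol arrays, 0.00022, -0.044 and 0.0010 in the mephedrone arrays and 0.034, 0.035 and -0.00022 in the combination arrays. Insig2 had the smallest F test p of its list. Its saline arrays were the lowest 3 of the 12, again without a count over all genes. Combination replicate 3 lay in the middle of the others. Its difference from saline was 0.15 with ethanol (SE 0.035, adjusted p = 0.997) and 0.13 with the combination (SE 0.035, adjusted p = 0.197), or 0.14 without combination replicate 3. Stard4, a carrier of sterols within the cell, differed by 0.16 between combination and saline (SE 0.055, adjusted p = 0.293), and by 0.10 without that array.

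Of 13 listed genes for sterol transport, storage and breakdown, 12 were measured and 0 passed. Abca1, an exporter of cholesterol, differed by 0.17 between combination and ethanol (SE 0.047, adjusted p = 0.309), and by 0.14 without combination replicate 3. Cyp46a1, the neuronal enzyme that converts cholesterol into an exportable oxysterol, differed by -0.15 between combination and ethanol (SE 0.054, adjusted p = 0.405). Its lowest array was combination replicate 3, at -0.14. All 13 genes listed for fatty acid synthesis were measured and 0 passed. The median of these 13 between combination and saline was 0.071 and, without combination replicate 3, 0.0010. Acaca, which makes malonyl-CoA, differed by 0.19 (SE 0.073, adjusted p = 0.332), or 0.14 without that array. Elovl6, a fatty acid elongase, was highest in ethanol replicate 1 at 0.31, and mephedrone differed from ethanol by -0.23 (SE 0.069, adjusted p = 0.617).

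Markers of some cell types varied with the 7 genes across arrays. The mean of the oligodendrocyte markers (11 of 12 listed measured) lay from 0.0017 to 0.16 in the saline arrays, -0.059 to 0.021 in the ethanol arrays, -0.16 to 0.029 in the mephedrone arrays and -0.034 to 0.53 in the combination arrays. That of the 10 astrocyte markers lay from -0.064 to -0.024, -0.041 to 0.10, -0.091 to 0.025 and -0.013 to 0.23 in the same order. The 2 highest arrays were combination replicate 3 (9 of 10 markers above 0) and ethanol replicate 1 (9 of 10), the arrays that were also highest for the mean of the 7 genes. The 10 choroid plexus markers reached 1.83 and 0.83 in these arrays, and 1.08 in saline replicate 2, where the mean of the 7 genes was -0.055. Markers of striatal projection neurons (9 of 13 measured) were lowest in the same 2 arrays, at -0.33 and -0.19, and between -0.023 and 0.079 in the others. Which markers were at background cannot be read from centred values.

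Pearson correlations of the mean of the 7 genes with these list means over 12 arrays were 0.90 for astrocytes, -0.89 for striatal projection neurons, 0.77 for choroid plexus, 0.76 for cortical neurons and 0.73 for oligodendrocytes. They were 0.72, -0.70, 0.47, 0.49 and 0.13 over the 11 arrays without combination replicate 3. Endothelial markers gave -0.19 and 0.31, and microglial markers -0.32 and -0.53. The mean of the 9 measured endothelial markers lay from -0.0066 to 0.035 in the saline arrays, -0.015 to 0.16 in the ethanol arrays, -0.035 to 0.063 in the mephedrone arrays and -0.097 to -0.028 in the combination arrays. In the mephedrone main effect 53.2% of all genes were above 0, 12.6% had an unadjusted p below 0.05 and 0.115% passed. Of the 9 endothelial markers 8 were below 0, 5 had an unadjusted p below 0.05 and 1 passed. This was Cldn5, a tight junction gene of the blood-brain barrier, named after its value was seen, which fell by 0.30 (SE 0.044, adjusted p = 0.0333, and 0.0495 without combination replicate 3). Between combination and ethanol 7 of the 9 had an unadjusted p below 0.05, beside 9.7% of all genes. The mephedrone main effect put all 10 microglial markers below 0 (median -0.072), and 0 passed. These are descriptions over arrays that share their normalisation. The part of other cell types in the differences between groups was not tested for the 7 genes. The oligodendrocyte covariate cannot serve as such a test. Its value was 0.53 in combination replicate 3 and at most 0.16 in any other array, so it largely marks that array.

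**Figure D4:**
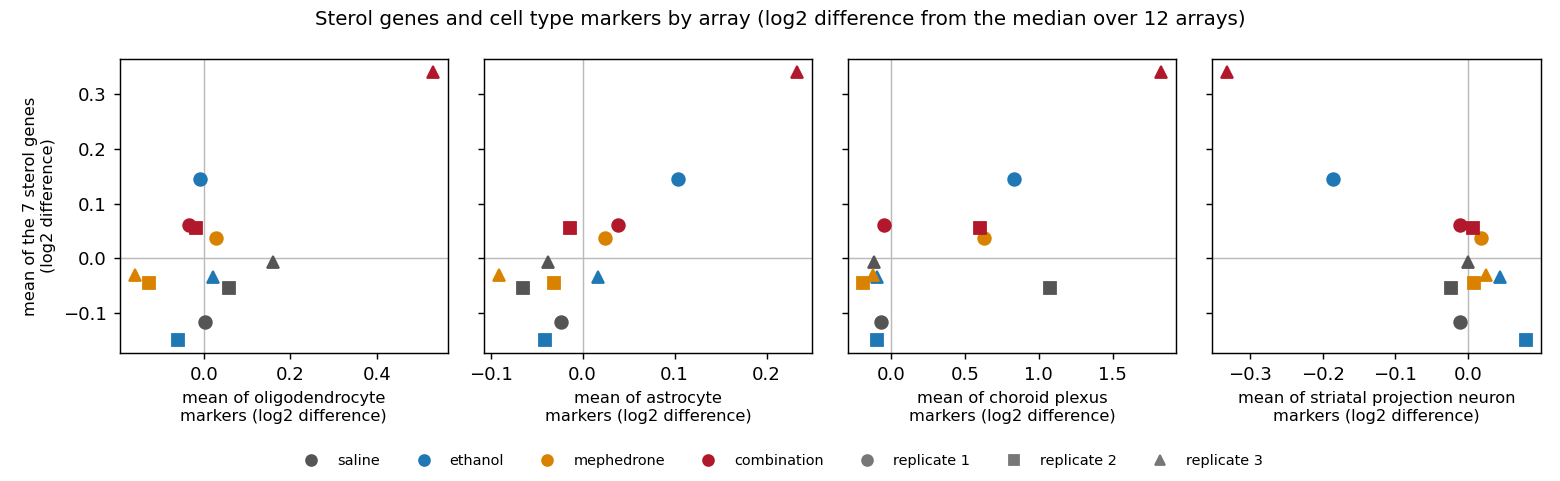
Mean log2 difference of the 7 sterol genes (vertical axis) against the mean of the oligodendrocyte, astrocyte, choroid plexus and striatal projection neuron markers (horizontal axes, log2 differences) in each of the 12 arrays. Colour gives the group and shape the replicate. Combination replicate 3 (0.34) and ethanol replicate 1 (0.14) are the highest points, and the same 2 arrays are the highest for astrocyte and the lowest for striatal projection neuron markers.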

How the data were processed

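RNA from 12 samples was hybridised to Affymetrix arrays after labelling with a whole-transcript kit, per the labels' protocols. The deposited log2 values were made with RMA on genome build mm8, per the submitters' processing notes. GeneSpring GX 7.3.1 was used for normalisation and analysis, per the series' design text. The deposited log2 table is also centred on each probe set's median over the 12 arrays, which no source states: the largest such median was 7.02e-07. It held 0 missing values and 28853 probe sets, of which 21789 carried 1 gene symbol in the platform annotation, 1621 several and 5443 none or no entry. Values were used as deposited.

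Single-symbol probe sets were averaged per gene, and group means were fitted to 19938 genes by lmFit and eBayes of limma 3.58.1 under R 4.3.3 (two-sided, 8 residual and 3.43 prior degrees of freedom, or 7 and 4.06 with 11 arrays). P-values were adjusted by Benjamini-Hochberg over all 19938 genes, with a threshold of 0.05. The fit was run on simulated data with independent noise and planted differences larger than any of the 7 genes. That run does not show the power for differences of the size reported here. No 2 arrays were duplicates: the smallest SD of a difference between 2 arrays over all probe sets was 0.0913.

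The 7 genes, the lists and the tests were chosen with earlier results of these data known. Named list genes were those that passed, the 2 of each list with the smallest F test p, and Srebf1, Srebf2 and Insig2 in any case. The comparison given for them differs from gene to gene, so their differences cannot be ranked against each other. The genes likest to the 7 were the 5 with the highest Pearson correlation. The other listed genes are counted only. Alternatives left out each replicate, or combination replicate 3 with ethanol replicate 1. Others used a replicate block, array quality weights, quantile normalisation, single probe sets, the compared arrays alone, or an oligodendrocyte marker covariate.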

Additional observations from a re-analysis of the deposited data

How the results depend on the processing

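Across 18 alternative settings (19 for comparisons of 2 groups), 1 of 1302 values of the 7 genes passed the threshold. This was Fdft1 in the mephedrone main effect with the oligodendrocyte marker covariate, so that 1 gene of the 7 was called there against 0 in the fit without it. The share of all genes called in that setting is not given, so the call cannot be read as particular to Fdft1. Fdft1 in that effect ranged from 0.13 (without combination replicate 3) to 0.20 (without combination replicate 2), with adjusted p from 0.0305 to 0.289. Its difference between combination and saline ranged from 0.18 to 0.31, with a smallest adjusted p of 0.0899. Of 1176 differences 60 changed sign under an alternative, none of them past the threshold, and 27 of these were of Insig1. The sample titles number the replicates 1 to 3 in each group without naming what a number shares. Deviations from the group means correlated with a median of 0.027 (-0.28 to 0.43) between same-numbered arrays. Between differently numbered arrays the median was 0.026 (-0.43 to 0.40). With 3 arrays per group and ranges this wide, these medians cannot tell whether a number stands for a shared batch. With the replicate block, 0 of the 7 genes were called, and Fdft1 in the mephedrone main effect was 0.17 (adjusted p = 0.165). Leaving out 1 replicate at a time called 0 of the 7 genes in each comparison. Over all genes, the calls in the mephedrone main effect ranged from 2 (without saline replicate 1) to 356 (array quality weights) against 23. Calls between combination and ethanol ranged from 0 to 37 against 5, between combination and saline from 0 to 6 against 2, between mephedrone and ethanol from 0 to 11 against 0, between mephedrone and saline from 0 to 2 against 0, between ethanol and saline from 0 to 1 against 0, and in the F test from 0 to 7 against 1. The cause of these shifts was not tested. With 3 arrays per group and centred values, signal over background could not be assessed.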
